A study of Homo sapiens and Mus musculus with 20 samples.

Results

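Acetylation of histone H3 at lysine 27 (H3K27ac) was compared between ARP1 cells with catalytically inactive KDM6A and ARP1 cells with intact KDM6A. ARP1 is a human multiple myeloma line, that is, a line of malignant plasma cells. The tested library is labelled KDM6A JmjD-dead and its title carries the substitution H1146E. The other library is labelled KDM6A WT. The labels do not say whether the altered allele was knocked in or added to cells without KDM6A, nor whether the line is 1 clone. No drug or time course is given for either. These are 2 of the 20 libraries of the series, which also holds KDM6A, HA, H3K27me3, H3K4me1 and input libraries and mouse fibroblasts. Used beside them are ARP1 libraries labelled KDM6A KO, of H3K27ac and of the KDM6A antibody. HA libraries of an HA-tagged ARP1 line and of the WT line are also used. The peak lists of the 2 titles were taken whole on chromosomes 1 to 22 and X, which gave 74063 JmjD-dead regions and 69127 WT regions. With 1 library a group nothing could be checked against replicates, and no test was made. The 95% intervals are exact Clopper-Pearson intervals and cover counting error only.

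KDM6A (UTX) is an X-linked demethylase that removes the repressive trimethyl mark from lysine 27 of histone H3 through its JmjC domain. It is also a subunit of the COMPASS complexes of KMT2C and KMT2D, which lay down H3K4me1 at enhancers and bring in the acetyltransferase EP300. The same lysine can carry either methyl groups or an acetyl group, and H3K27ac marks active promoters and enhancers. A line with a catalytically dead KDM6A separates the demethylase activity from the presence of the protein. Whether the protein was present at its usual level was not analysed here.

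The promoters below are shown because they lie under regions found in only 1 of the 2 lists, and IRF4, an identity factor of plasma cells, is shown beside them as a promoter acetylated in both. Capitals mark the dinucleotide CG, which clusters in the promoters of widely used genes. Sequences are RefSeq promoter windows of GRCh38.p14 on the gene's strand, 250 bases before the start to 50 after, read at the listed start nearest the region. TREML2 encodes a receptor of the TREM family on immune cells and its window is chr6:41201100-41201399 (minus strand). HRH2 encodes the histamine H2 receptor, at chr5:175657821-175658120 (plus strand). Both lay under a region in WT and under none in JmjD-dead. DAPK1 encodes a death-associated kinase, at chr9:87498332-87498631 (plus strand), KLRC1 the inhibitory natural killer receptor NKG2A, at chr12:10454636-10454935 (minus strand), and NRG2 a neuregulin ligand of ErbB receptors, at chr5:140043250-140043549 (minus strand). These 3 lay under a region in JmjD-dead and under none in WT. The IRF4 window is chr6:391502-391801 (plus strand).
TREML2: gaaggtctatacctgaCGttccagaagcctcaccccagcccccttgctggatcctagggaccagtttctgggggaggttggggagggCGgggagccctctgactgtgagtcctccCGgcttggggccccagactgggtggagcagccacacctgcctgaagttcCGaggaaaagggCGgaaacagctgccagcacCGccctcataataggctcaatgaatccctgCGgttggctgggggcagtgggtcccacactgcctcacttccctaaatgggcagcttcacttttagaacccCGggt
HRH2: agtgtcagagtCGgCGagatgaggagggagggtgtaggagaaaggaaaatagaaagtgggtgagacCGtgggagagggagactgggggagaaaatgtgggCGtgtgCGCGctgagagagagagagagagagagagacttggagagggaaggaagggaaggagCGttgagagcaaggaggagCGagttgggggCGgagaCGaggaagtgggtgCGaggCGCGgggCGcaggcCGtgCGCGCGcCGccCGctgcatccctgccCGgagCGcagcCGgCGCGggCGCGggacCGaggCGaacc
DAPK1: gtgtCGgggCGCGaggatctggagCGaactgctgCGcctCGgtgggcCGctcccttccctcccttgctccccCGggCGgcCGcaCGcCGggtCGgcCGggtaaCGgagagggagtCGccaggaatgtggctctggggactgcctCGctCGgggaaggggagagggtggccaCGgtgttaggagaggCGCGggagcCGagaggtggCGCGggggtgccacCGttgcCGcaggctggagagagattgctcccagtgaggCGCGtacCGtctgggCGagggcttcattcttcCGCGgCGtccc
KLRC1: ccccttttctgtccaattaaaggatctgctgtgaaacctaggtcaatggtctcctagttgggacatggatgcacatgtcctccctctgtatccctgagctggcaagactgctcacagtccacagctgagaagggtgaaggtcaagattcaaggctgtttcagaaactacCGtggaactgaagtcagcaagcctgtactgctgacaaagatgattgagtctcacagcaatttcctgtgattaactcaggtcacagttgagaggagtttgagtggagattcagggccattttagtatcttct
NRG2: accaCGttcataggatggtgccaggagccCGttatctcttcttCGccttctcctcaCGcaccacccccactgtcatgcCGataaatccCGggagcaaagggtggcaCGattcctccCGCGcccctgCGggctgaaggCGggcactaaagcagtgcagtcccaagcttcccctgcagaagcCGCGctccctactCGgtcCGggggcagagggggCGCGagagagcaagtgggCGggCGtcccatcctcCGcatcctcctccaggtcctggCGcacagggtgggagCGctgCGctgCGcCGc
IRF4: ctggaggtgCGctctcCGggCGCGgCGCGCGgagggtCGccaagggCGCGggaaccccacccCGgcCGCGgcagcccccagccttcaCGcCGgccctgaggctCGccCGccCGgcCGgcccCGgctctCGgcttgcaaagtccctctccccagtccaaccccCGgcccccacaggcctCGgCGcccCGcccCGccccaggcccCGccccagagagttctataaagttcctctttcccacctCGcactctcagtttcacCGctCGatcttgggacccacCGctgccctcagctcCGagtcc
The windows held 8 CG in TREML2 and 29 in HRH2, then 33 in DAPK1, 1 in KLRC1 and 25 in NRG2, against 32 in IRF4. Both sets of changed promoters thus included windows rich and poor in CG.

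Interferon-stimulated genes changed in both directions, and 4 of their promoters are shown with the core of the interferon-response element, GAAANNGAA, in capitals on either strand. TRIM5, a restriction factor against retroviruses, is read at chr11:5685025-5685324 (minus strand). OAS3, an oligoadenylate synthetase that senses double-stranded RNA, is read at chr12:112938224-112938523 (plus strand). Both held a region in WT and none in JmjD-dead. IFIT1, which binds foreign RNA caps, is read at chr10:89392373-89392672 (plus strand), and IFIH1, the RNA sensor MDA5, at chr2:162318635-162318934 (minus strand). Both held a region in JmjD-dead and none in WT.
TRIM5: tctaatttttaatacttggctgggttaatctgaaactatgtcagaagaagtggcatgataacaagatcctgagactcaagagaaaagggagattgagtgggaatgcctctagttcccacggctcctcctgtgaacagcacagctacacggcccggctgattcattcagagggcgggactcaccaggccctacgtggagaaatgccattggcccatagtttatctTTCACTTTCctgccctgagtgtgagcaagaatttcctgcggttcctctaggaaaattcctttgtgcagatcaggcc
OAS3: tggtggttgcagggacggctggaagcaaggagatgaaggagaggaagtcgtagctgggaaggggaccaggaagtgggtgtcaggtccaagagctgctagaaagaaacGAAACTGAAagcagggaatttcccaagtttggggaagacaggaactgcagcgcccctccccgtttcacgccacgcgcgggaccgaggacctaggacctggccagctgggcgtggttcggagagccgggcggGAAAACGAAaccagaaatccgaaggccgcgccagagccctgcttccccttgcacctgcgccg
IFIT1: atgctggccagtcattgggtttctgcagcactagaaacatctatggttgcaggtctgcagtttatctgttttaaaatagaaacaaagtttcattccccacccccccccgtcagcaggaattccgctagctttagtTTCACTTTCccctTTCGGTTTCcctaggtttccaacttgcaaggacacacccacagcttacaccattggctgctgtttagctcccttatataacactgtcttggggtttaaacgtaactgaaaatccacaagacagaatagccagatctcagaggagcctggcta
IFIH1: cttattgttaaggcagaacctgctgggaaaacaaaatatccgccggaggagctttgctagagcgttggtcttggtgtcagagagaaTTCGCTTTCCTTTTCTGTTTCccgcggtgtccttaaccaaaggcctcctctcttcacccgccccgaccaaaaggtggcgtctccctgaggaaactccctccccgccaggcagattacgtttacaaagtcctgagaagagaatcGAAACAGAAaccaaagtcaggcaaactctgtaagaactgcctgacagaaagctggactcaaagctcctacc
The window of TRIM5 held 1 match, OAS3 and IFIT1 2 each and IFIH1 4, so the motif was present in windows of both directions. The listed region covered all 300 bases of the TRIM5 window, but only 63 in OAS3, 38 in IFIT1 and 62 in IFIH1. A match in a window thus need not lie under the region. A match describes these letters and is not a shown binding site.

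The libraries were close in depth and called alike. The JmjD-dead library held 31171803 fragments after the authors' filtering and the WT library 30772474, and the lowest pileup of a listed region was 7 fragments in both. The regions covered 69.9 Mb in JmjD-dead and 71.0 Mb in WT. JmjD-dead regions were more numerous and narrower, with a median width of 440 bp against 487 bp in WT, and the authors' fragment length was 132 bp against 146 bp. All 8 plasma cell markers held a promoter region in both libraries, with 137458 bp in regions in JmjD-dead and 136400 bp in WT. Of 6 B cell markers 0 held one in JmjD-dead and 2 in WT, and of 6 myeloid and erythroid markers 0 in both. Of 6 T and NK markers 1 held one in each library, and of 6 epithelial and stromal markers 1 in JmjD-dead and 2 in WT. The summed covered length of these lists was 12582 bp in JmjD-dead and 14555 bp in WT for B cells, and 3810 bp and 5331 bp for T and NK cells. It was 7246 bp in JmjD-dead and 7235 bp in WT for myeloid and erythroid cells, and 15194 bp and 7625 bp for epithelial and stromal cells. The part of such markers in the results was not tested. The promoter of KDM6A itself held a region in both, at chrX:44871677-44872931 in WT, with a pileup of 91 fragments in JmjD-dead and 95 in WT. Peak lists do not show the substitution, so this does not check the genotype label.

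A region with no counterpart is called gained in the JmjD-dead list and lost in the WT list, a counterpart being any region of the other list that overlaps it by at least 1 bp. Of 74063 JmjD-dead regions 21547 were gained (29.1%), and of 69127 WT regions 19176 were lost (27.7%). With both lists at the length of the shorter one 18160 were gained and 20181 lost, so the order of the counts turned round. Gained and lost regions were weak and narrow. Gained regions had a median pileup of 10 fragments and a median width of 217 bp, against 21 fragments and 689 bp for the shared regions of the same list. Lost regions had a median of 10 fragments and 239 bp, against 21 fragments and 762 bp for the shared WT regions. Regions were ranked within a list by the authors' −log10 q. Without a control or a local background this value, like the authors' fold enrichment, followed the pileup alone in both lists. Below the median rank 51.8% of JmjD-dead regions were gained and 51.1% of WT regions lost. Above it 6.41% were gained and 4.36% lost. Among the top 20% of each list 30 of 14812 JmjD-dead regions were gained and 3 of 13825 WT regions lost. Of those 30 gained regions 14 were under 200 bp wide, a width found in 35 of the 14812. A pileup of at least 30 fragments was reached by 124 gained and 52 lost regions. Regions missing from the other library were therefore mostly those close to the detection limit, and the strongest ones were nearly all shared. The lower edge of detection and a weaker mark cannot be told apart in a list, nor can fewer acetylated cells and less acetylation per cell.

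Gains and losses lay away from promoters more often than shared regions did. A region was called promoter-proximal when it touched 1 kb around an annotated start, or 2.5 kb around a gene end for genes with no start in the table. Of 59909 distal JmjD-dead regions 34.3% were gained (interval 33.9 to 34.7), against 7.07% of 14154 proximal ones (6.65 to 7.50). Of 55604 distal WT regions 32.9% were lost (32.5 to 33.3), against 6.40% of 13523 proximal ones (6.0 to 6.83). Distal regions were also ranked lower. With the distal share weighted to the ranks of proximal regions, 10.3% of distal regions were gained and 8.90% lost. In the sixth of 10 equal rank bins 34.6% of distal and 22.6% of proximal JmjD-dead regions were gained, and 29.5% of distal and 20.4% of proximal WT regions lost. The gap between distal and proximal regions was thus smaller at matched ranks but remained. Inside gene bodies 30.9% of the distal JmjD-dead regions were gained and 33.8% of the distal WT regions lost, and between genes 36.8% and 32.2%.

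**Figure D1:**
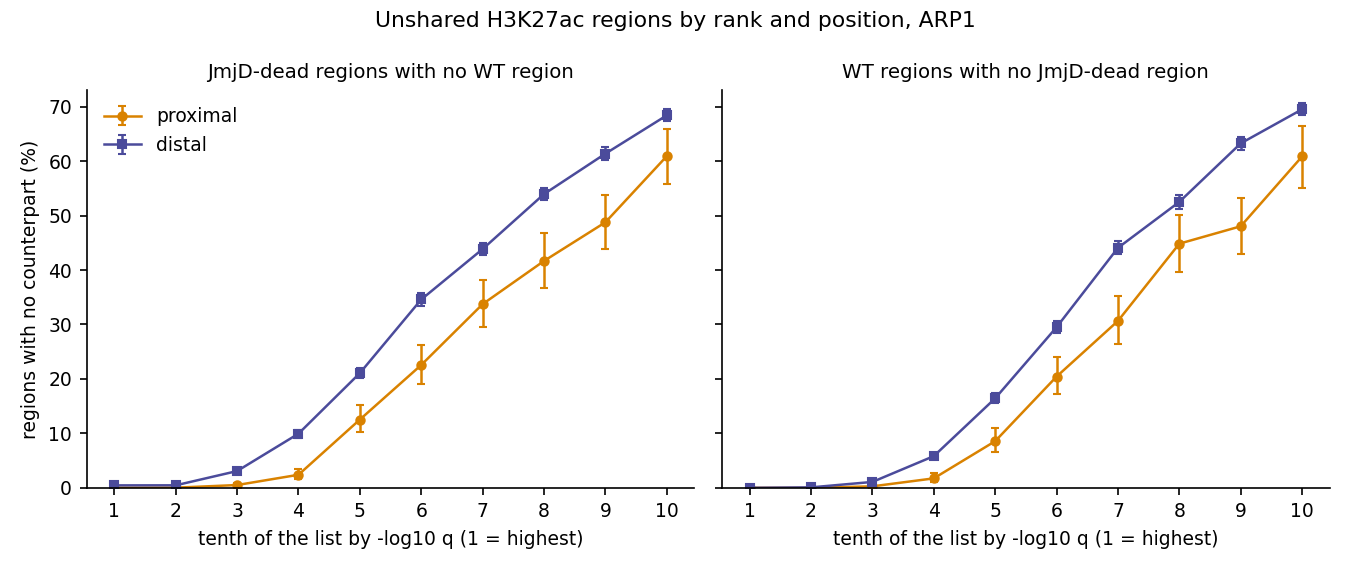
Share of regions with no counterpart in the other list (%, vertical axis) in 10 equal bins of rank by −log10 q (horizontal axis, 1 is highest), for JmjD-dead regions (left) and WT regions (right). Circles are promoter-proximal and squares distal regions, bars are 95% binomial intervals for counting error, and the distal share lay above the proximal one from the third bin down in both lists.

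Few genes changed between a promoter with a region and one without. Of 8130 genes without a WT region 276 held one in JmjD-dead (gained, 3.39%), and of 11840 genes with a WT region 287 held none in JmjD-dead (lost, 2.42%). The other 11553 marked genes were kept. With both lists at −log10 q of at least 5 there were 311 gained and 199 lost genes, from lists of unequal length (53380 JmjD-dead and 44526 WT regions). For 174 of the 276 gained genes and 175 of the 287 lost genes the other list held no region within 10 kb either, and only such genes are named next. The promoters of gained genes had a median pileup of 11 fragments against 85 at kept genes of the same list, and those of lost genes 11 against 88. A change of state was thus found mostly at weakly acetylated promoters. The highest pileup at a lost gene was 1223 fragments, while no lost region passed 77. At some lost genes the WT region thus had a JmjD-dead counterpart that did not reach the promoter window.

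The highest ranked gained promoters of this kind were those of SULF2, ZNF532, DAPK1, KLRC1, KATNAL1, NRG2, HDGFL1, ZNF432, GLUD2 and KLK7. SULF2, an extracellular sulfatase that trims heparan sulfate, held a region at chr20:47757547-47764388 with a pileup of 56 fragments in JmjD-dead and none in WT. DAPK1 held one at chr9:87497404-87499714 with 35 fragments, and KLRC1, which has near-identical neighbours and is uncertain, one at chr12:10454124-10455530 with 28. NRG2 held one at chr5:140041722-140044118 with 28 fragments, and KATNAL1, a katanin-like protein that severs microtubules, one with 28. ZNF532 and ZNF432, both zinc finger genes, had 35 and 24 fragments. KLK7, a kallikrein protease, had 21 fragments. The region at GLUD2, an intronless copy of the glutamate dehydrogenase gene GLUD1, was 156 bp wide, and its origin between the copies is uncertain. SULF2 ranked 12183 of the 74063 JmjD-dead regions, within the top 20% of its list. In the H3K27ac library labelled KDM6A KO, SULF2, DAPK1, KLRC1 and GLUD2 held no promoter region. The other named genes held one there, with 46 fragments at KATNAL1.

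The highest ranked lost promoters of this kind were those of TREML2, PELI2, COL4A3, COL4A4, ARHGAP15, HRH2, PRKCB, TRIM5, PMCH and ITPRIPL2. TREML2 held a region at chr6:41199126-41202004 with a pileup of 44 fragments in WT, and JmjD-dead had none across the gene and 10 kb either side. PELI2, a Pellino ubiquitin ligase of Toll-like receptor signalling, had 36 fragments at chr14:56118303-56119660. COL4A3 and COL4A4 encode type IV collagen chains from a shared promoter and had the same region, at chr2:227164280-227165160 with 32 fragments. ARHGAP15, a Rac inhibitor of blood cells, had 31 fragments, and HRH2 28. PRKCB, the protein kinase C of B cell receptor signalling, had 25 fragments at chr16:23836144-23837092. TRIM5, PMCH (the precursor of melanin-concentrating hormone) and ITPRIPL2 had 22 each. None of the 10 reached the top 20% of the WT list, the highest being TREML2 at rank 15192 of 69127. In the KO library ARHGAP15 and PMCH held no promoter region and the other named genes held one. Its pileup was 40 fragments at HRH2 and 34 at ITPRIPL2, above WT, and 11 at TREML2 and 10 at PRKCB, below WT. An H3K27me3 region lay at the TREML2 promoter in both genotypes and at KLRC1 in JmjD-dead only.

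The windows of gained and lost genes had less CG than those of kept genes and more than unmarked ones. The table gives a start for 15811 of 19970 genes, and 1 window per gene was read. The observed over expected CG was 0.718 at the median of 193 gained promoters, 0.674 of 200 lost ones, 0.853 of 9419 kept ones, 0.362 of 5999 unmarked ones and 0.763 of all. GAAANNGAA, on either strand, was in 8.29% of gained windows (interval 4.81 to 13.1), 11.5% of lost ones (7.43 to 16.8), 6.33% of kept ones and 7.06% of all. TATAAA was in 6.22% of gained, 7.50% of lost, 5.17% of kept and 9.64% of all windows. TTCNNNGAA, the site shape of STAT factors, was in 10.9% of gained, 6.50% of lost, 6.15% of kept and 6.98% of all windows. The AP-1 site TGACTCA was in 5.18% of gained, 2.00% of lost and 3.67% of all windows, and the E-box CACGTG in 5.70% of gained, 6.0% of lost and 8.87% of all windows. CCAAT was in 35.2% of gained, 27.5% of lost and 36.3% of all windows. The NF-kB site GGGACTTTC was in 1.04% of gained, 0.50% of lost and 0.36% of all windows, and the cyclic AMP element TGACGTCA in 0.52% of gained, 2.00% of lost and 2.59% of all windows. The intervals of gained and lost windows overlapped for all 8 motifs. TTCNNNGAA and GAAANNGAA can overlap in a window at the letters GAA.

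Covered length gives a graded view of a locus. It is the number of bases of the gene body and 10 kb either side that lie in regions of a list, and the ratio is log2 of JmjD-dead over WT after adding 200 bp to each. Among 12924 genes with a mean of at least 1000 bp, 168 were at least 2-fold higher in JmjD-dead (1.3%) and 197 at least 2-fold lower (1.52%). With both lists at −log10 q of at least 5 the split turned round, to 205 higher and 174 lower. The JmjD-dead list then held 53380 regions and the WT list 44526. The median of all tested genes was -0.02 and the quartiles were 0.13 and -0.17. Genes overlap and flanks reach neighbours, so counts include shared regions.

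NRG2 was covered over 8077 bp in JmjD-dead and 0 bp in WT, with 4099 bp in the H3K27ac library labelled KDM6A KO. That library is set against the same WT library throughout. SULF2 had 13240 bp in JmjD-dead, 5400 bp in KO and 197 bp in WT. PRTG, an immunoglobulin superfamily receptor, had 8083 bp in JmjD-dead, 1162 bp in KO and 282 bp in WT. For these 3 genes the KO value lay between the other two. KSR1, a scaffold of the RAF and MEK kinases, had 7128 bp in JmjD-dead and 838 bp in WT. GRAP2, the T cell adaptor GADS, had 6167 bp and 809 bp, and TEKT5, a tektin of cilia, 10234 bp and 1653 bp, JmjD-dead first. The other genes of the 10 named as higher were GLDN, ZNF532, IGFL2 and TMEM51, with log2 ratios of 2.71 to 3.31.

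CPXM2, a secreted protein of the carboxypeptidase family, was covered over 228 bp in JmjD-dead, 4625 bp in KO and 6050 bp in WT. LRMDA, named for melanocyte differentiation, had 1671 bp in JmjD-dead, 12377 bp in KO and 14442 bp in WT. ALK, a receptor tyrosine kinase, had 865 bp in JmjD-dead, 1528 bp in KO and 6946 bp in WT. For CPXM2 and LRMDA the KO value lay near WT, and for ALK near JmjD-dead. FUT7, the fucosyltransferase that makes the selectin ligand sialyl Lewis x, had 1756 bp in JmjD-dead, 6120 bp in KO and 6180 bp in WT. A WT region of 90 fragments reached its promoter window and no JmjD-dead region did, though 1 lay within 10 kb. That WT region was not itself lost, as no lost region passed 77 fragments. A JmjD-dead region thus overlapped it outside the window. SLC24A3, a sodium, potassium and calcium exchanger, had 1567 bp in JmjD-dead and 9417 bp in WT. OLFML3 and DHRS3 had log2 ratios of -1.76 and -1.75. The last 3 of the 10, GCSAM, ANO10 and MYH15, lie on chromosome 3, which was lower as a whole (given below).

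**Figure D2:**
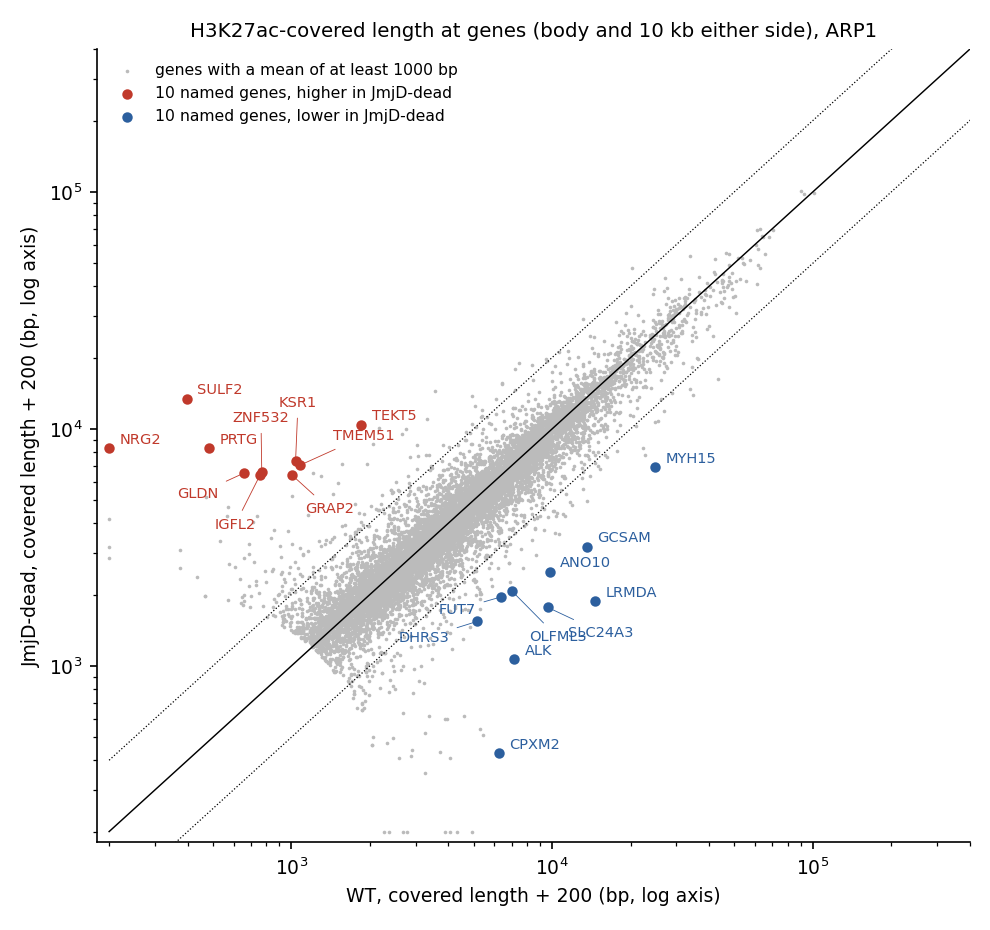
Length covered by H3K27ac regions at each gene (body and 10 kb either side, plus 200 bp, log axes), in JmjD-dead (vertical) against WT (horizontal), 1 point per gene with a mean of at least 1000 bp. The solid line is equality and dotted lines are 2-fold. The 10 named higher genes (red) include NRG2 at 8077 bp against 0 bp, and the 10 named lower genes (blue) include CPXM2 at 228 bp against 6050 bp.

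Among all genes marked in WT 2.42% were lost, so a list with every promoter kept is near what all genes show. Several lists were of this kind. All 18 plasma cell identity genes marked in WT were kept, and 11 of 19 tested were covered more and 8 less, with a median log2 ratio of 0.00 against -0.02 for all genes. PRDM1, the master regulator of plasma cells, had 38435 bp in JmjD-dead and 38547 bp in WT. IRF4 had 18194 bp and 18584 bp, and XBP1, the factor of the secretory programme, 18220 bp and 15969 bp, JmjD-dead first. Only CAV1, which encodes caveolin, passed 2-fold among the 19, with 3270 bp in JmjD-dead and 632 bp in WT. The 20 housekeeping genes were all kept with a median of 0.04. All 20 endoplasmic reticulum folding genes were kept with a median of -0.06, among them HERPUD1, on chromosome 16, which was lower as a whole, with 6574 bp in JmjD-dead and 11842 bp in WT. All 19 marked genes of the myeloma oncogene and drug axis were kept with a median of -0.11, and MYC had 8207 bp in JmjD-dead and 7196 bp in WT.

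All 20 marked genes of MHC class I and peptide processing were kept, where 2.42% of all marked genes were lost. Of 19 tested, 16 were covered less and 3 more, with a median of -0.05, where 6942 of all 12924 genes were covered less. None reached 2-fold, and the range was -0.50 to 0.21. NLRC5, the transactivator of class I genes, had 17165 bp in JmjD-dead and 19058 bp in WT. HLA-B, a class I heavy chain with close relatives whose reads are hard to place, had a region with a pileup of 63 fragments in JmjD-dead and 101 in WT. Of 16 class II genes 5 were marked in both libraries. CIITA, the class II transactivator, had 5669 bp in JmjD-dead, 10513 bp in KO and 9740 bp in WT. Both NLRC5 and CIITA lie on chromosome 16, which was also lower as a whole.

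Interferon-stimulated genes were the list with most changes of state, 4 gained of the 16 unmarked in WT and 4 lost of the 19 marked, where 3.39% of all unmarked genes were gained and 2.42% of all marked genes lost. The gained genes were IFIT1, IFIT5, IFIH1 and USP18, the protease that removes ISG15, with pileups of 15, 14, 12 and 13 fragments in JmjD-dead. The lost genes were TRIM5, HERC5, the ligase that attaches ISG15, OAS3 and IFITM3, with 22, 22, 10 and 13 fragments in WT. IFIT1, IFIT5 and IFITM3 have close copies beside them, so their values are uncertain. All 8 were weak promoters in the library that listed them, and IFITM3 still had a JmjD-dead region within 10 kb. IFIT1 was covered over 1469 bp in JmjD-dead, 0 bp in KO and 0 bp in WT, and TRIM5 over 0 bp, 779 bp and 1518 bp in the same order. The list's median covered length was 0.07, with 10 of 18 tested genes higher and 0 past 2-fold. Among interferon receptors and JAK, STAT and IRF factors, STAT4, a factor downstream of interleukin 12, had 1340 bp in JmjD-dead and 3706 bp in WT. IFNGR2, a chain of the interferon gamma receptor, was lost at the weak start that WT listed with 11 fragments.

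Immune ligands and adhesion genes had 2 gained of 13 unmarked in WT (3.39% over all genes) and 4 lost of 15 marked (2.42% over all genes). The gained genes were the PD-1 ligands CD274 and PDCD1LG2, with regions of 10 and 8 fragments in JmjD-dead and no WT region within 10 kb. In length these were 145 bp at CD274 and 133 bp at PDCD1LG2, close to the limit of detection. The lost genes were VSIR, LGALS9, BTLA and ULBP3, with 9, 14, 12 and 8 fragments in WT. VSIR encodes the checkpoint VISTA, LGALS9 galectin-9, BTLA a lymphocyte attenuator and ULBP3 a ligand of the receptor NKG2D. HHLA2, a B7 family ligand, had 14005 bp in JmjD-dead, 20850 bp in KO and 28703 bp in WT. The costimulatory ligand CD86 had 4156 bp in JmjD-dead and 8198 bp in WT. CD86, HHLA2, BTLA and CD47 lie on chromosome 3. The list's median was -0.19 with them and -0.01 without chromosomes 3 and 16, for 9 genes.

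Genes of the KDM6A, acetylation and Polycomb machinery were all kept, near the share over all genes, of which 2.42% were lost. This held for 17 genes of KDM6A and COMPASS, 23 writers, erasers and readers of acetylation and 26 Polycomb genes, with medians of -0.05, -0.08 and -0.03 and none past 2-fold. KDM6A had 9339 bp in JmjD-dead and 9699 bp in WT. Polycomb targets were mostly unmarked. Of 15 HOX genes marked in WT 3 were lost, HOXC11, HOXB2 and HOXB5, with 17, 10 and 7 fragments, against 2.42% lost over all genes. Of 24 unmarked HOX genes 0 were gained, against 3.39% over all genes. Of 30 unmarked developmental regulators outside HOX 2 were gained, PAX2 and GATA2, and of 10 marked ones NKX2-1 was lost, each with 9 fragments. B cell identity genes had BLNK gained of 13 unmarked, with 16 fragments, and PAX5 and CD79A lost of 7 marked, with 11 and 9. PAX5 is the B cell identity factor that plasma cells switch off.

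The remaining lists held few changes. Over all genes 3.39% of those unmarked in WT were gained and 2.42% of those marked lost. In covered length 1.3% were past 2-fold higher and 1.52% past 2-fold lower. Of 13 BCL2 family genes marked in WT BBC3, which encodes the death activator PUMA, was lost with 14 fragments. BCL2L1, which encodes the survival protein BCL-XL, had 5207 bp in JmjD-dead and 2263 bp in WT, and its promoter pileup was 104 and 108 fragments in the same order. LTB, which encodes lymphotoxin beta, was gained of 3 unmarked NF-kB genes with 10 fragments, and all 17 marked ones were kept. All 8 marked cytokine receptor and interleukin 6 genes were kept, with a median of 0.27, the highest among lists of 8 or more tested genes. IL6R had 11845 bp in JmjD-dead and 7258 bp in WT, and rank shifted at its promoter by 22.3 points. Of 9 unmarked metallothioneins MT1F was gained with 12 fragments. Markers of other cell types changed at a few genes. Of 7 tested T and NK genes CD3E, NCAM1 and GNLY were past 2-fold lower and 3 were covered more, with a median of -0.30. KLRC1 was gained of 10 unmarked in WT. CDH1 and PECAM1, of epithelial and endothelial cells, were past 2-fold higher and were the only 2 tested in their list. KRT18 was gained of 11 unmarked, and CDH5 and COL1A1 were lost of 3 marked.

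**Figure D3:**
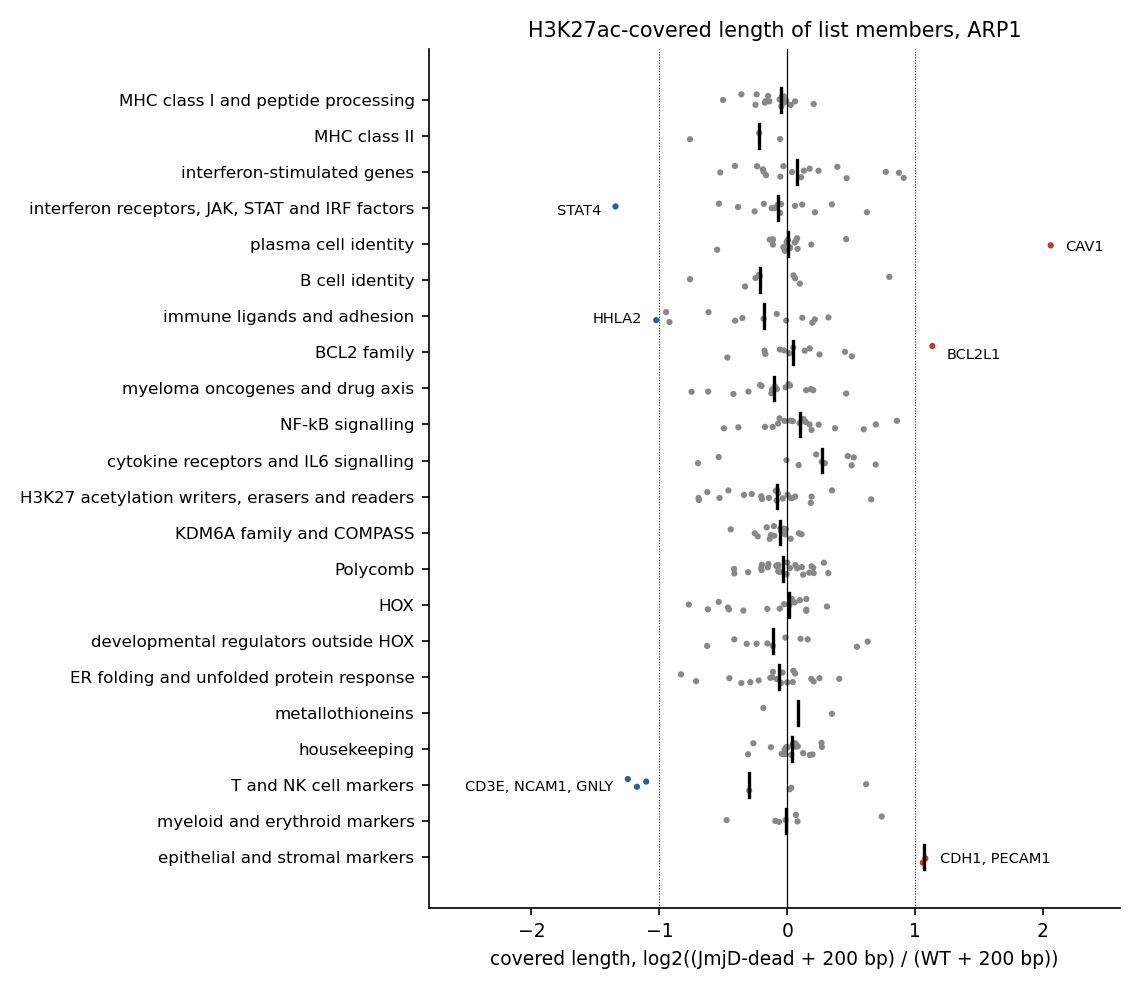
Log2 ratio of covered length, JmjD-dead over WT (horizontal axis), for the members of 22 gene lists with a mean of at least 1000 bp, 1 point per gene. Bars are list medians and dotted lines 2-fold, and points past 2-fold are coloured and named. List medians lay between -0.30 and 0.27 apart from the epithelial and stromal list, which had 2 tested genes and a median of 1.07.

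Among shared regions rank shifts were about as frequent upwards as downwards. Regions matched 1 to 1 were ranked by −log10 q within each list, and the shift is the JmjD-dead percentile minus the WT percentile. Of 45677 pairs 3423 ranked at least 20 points higher in JmjD-dead (7.49%) and 3405 at least 20 points lower (7.45%). Shifts were wider at distal pairs, with an SD of 15.7 points over 33556 pairs, than at proximal pairs, with 8.70 over 12121. At 20 points 2.44% of proximal pairs ranked higher and 2.33% lower, and of distal pairs 9.32% and 9.31%. At promoters, 144 of 11553 kept genes ranked at least 20 points higher (1.25%) and 263 at least 20 points lower (2.28%). Without chromosomes 3 and 16 the counts were 98 higher and 153 lower. The widest promoter shifts were downwards at RAB36, ADAP1, CTIF, KCNN4 and OCSTAMP and upwards at RXFP4, NPIPB11, ITM2C, SLC35A2 and SLC35D4. Several followed where a region was split and not its height. RAB36 had one region of 8310 bp in WT that reached its window, whereas JmjD-dead listed a fragment of 146 bp there, and covered length was 16396 bp in JmjD-dead and 18198 bp in WT. At ADAP1, CTIF, NPIPB11 and SLC35D4 the highest regions of the 2 lists lay at different places of the gene. OCSTAMP, which encodes a membrane protein of osteoclast fusion, differed on both measures, with a pileup of 49 fragments and 4781 bp in JmjD-dead and 150 fragments and 13455 bp in WT. KCNN4, a calcium-activated potassium channel, had 6966 bp in JmjD-dead and 14422 bp in WT. NPIPB11 belongs to a family of near-identical copies and its value is uncertain. With regions closer than 500 bp joined, 6 of these 10 shifts came to under 20 points and that of SLC35A2 turned to -2.05.

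Clusters of regions changed at few loci. They were not sorted into enhancers and other clusters, and some lay far from any coding gene. Regions of both lists were stitched over gaps of up to 12500 bp, which gave 1066 domains with a mean covered length of at least 10000 bp. Of these 7 were at least 2-fold higher in JmjD-dead (0.657%) and 14 at least 2-fold lower (1.31%). With both lists at −log10 q of at least 5 the split turned round, to 13 higher and 5 lower, and with stitching at 5 kb to 9 higher and 7 lower. The limit on q corresponds to a pileup of at least 11 fragments in JmjD-dead and 12 in WT, and left 53380 and 44526 regions.

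The higher domain with the largest difference lay in DIP2C at chr10:510724-610938, with 33971 bp covered by 34 regions in JmjD-dead and 10686 bp by 8 regions in WT. At SSTR1, the gene of a somatostatin receptor, the domain chr14:38196653-38234581 had 17551 bp in JmjD-dead and 2770 bp in WT, with highest pileups of 120 and 48 fragments. At CHCHD2 and NUPR2 on chromosome 7 covered length was 21191 bp and 7955 bp, and at CABLES1 and SLC35D4 on chromosome 18 19776 bp and 9185 bp, JmjD-dead first. The fifth, chr10:40643500-40683724, had 15769 bp and 7760 bp and no coding gene within 1890445 bp. It lies in a stretch dense in regions. A further higher domain, chr10:40933584-40988420, had 13814 bp and 6554 bp and no coding gene within 1585749 bp. Of all domains, the largest by mean covered length was chr1:122996763-124946444, with 381945 bp in JmjD-dead and 305287 bp in WT. No coding gene lay within 1533634 bp of it. The KO library had 11909 bp at DIP2C and 3288 bp at SSTR1, near the WT values. At CHCHD2 and NUPR2 it had 15591 bp, between the JmjD-dead and WT values. At CABLES1 and SLC35D4 it had 2989 bp, below both, and at chr10:40643500-40683724 10990 bp, between them.

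The lower domain with the largest difference lay in UNC5D, which encodes a netrin receptor, at chr8:35581850-35643220, with 11116 bp covered in JmjD-dead, 10964 bp in KO and 28378 bp in WT. A domain 152050 bp from CRYBA4, at chr22:26782719-26848380, had 8755 bp in JmjD-dead, 11602 bp in KO and 25050 bp in WT. The highest pileup was 87 fragments in JmjD-dead and 187 in WT at UNC5D, and 94 and 218 near CRYBA4. The other 3 named lie on chromosomes 3 and 16. That at HHLA2 and MYH15 had 6691 bp and 22293 bp, that in XYLT1, a xylosyltransferase of proteoglycan synthesis, 5087 bp and 19408 bp, and that across TMPRSS7, C3orf52, GCSAM and SLC9C1 8282 bp and 22378 bp, JmjD-dead first. In KO these domains had 15423 bp, 22877 bp and 10580 bp in the same order, the XYLT1 value being above WT.

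H3K27ac on chromosomes 3 and 16 was lower in JmjD-dead along their whole length. On chromosome 3 the regions covered 3.41 Mb in JmjD-dead, 4.20 Mb in KO and 4.23 Mb in WT. Of its regions 17.6% were gained and 36.6% lost, and shared regions shifted by a median of -5.14 points, 73.4% of the 2367 pairs being lower. On chromosome 16 covered length was 2.46 Mb in JmjD-dead, 3.27 Mb in KO and 2.84 Mb in WT, with 22.1% gained, 32.8% lost and a median shift of -3.50 points. On the other chromosomes the median shift lay between -0.49 and 1.30. In covered length at genes chromosome 21 was also low, with a median log2 ratio of -0.14. That ratio was -0.18 on chromosome 3 and -0.13 on chromosome 16. On chromosome 21 36.5% of regions were lost and 30.1% gained, and the median shift was -0.49. Their lost shares ran from 17.2% to 36.5% and their gained shares from 21.7% to 37.7%, so the shares of chromosome 16 fell within the range of the others. The shift was spread along both chromosomes. All 20 stretches of 10 Mb on chromosome 3 and all 9 on chromosome 16 had a median below 0, against 121 of 273 elsewhere. On chromosome 3 it was -4.13 points at 664 proximal pairs and -6.14 at 1703 distal pairs. In KO against the same WT library the median shift was 0.32 on chromosome 3 and 2.95 on chromosome 16. Chromosome 3 held 34 of the 197 genes past 2-fold lower in covered length and 4 of the 168 past 2-fold higher.

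H3K27me3 rank shifts are given beside these values. Their median between JmjD-dead and WT was -5.94 on chromosome 3 and -7.73 on chromosome 16, and between -12.2 and 9.83 on the others, in libraries of 10449019 fragments in JmjD-dead and 5026016 in WT. The part of H3K27me3 in the H3K27ac result was not tested. DNA copies of these chromosomes were not measured in the files used. Without chromosomes 3 and 16, a choice made after seeing the data, 159 genes were past 2-fold higher in covered length and 150 past 2-fold lower.

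**Figure D4:**
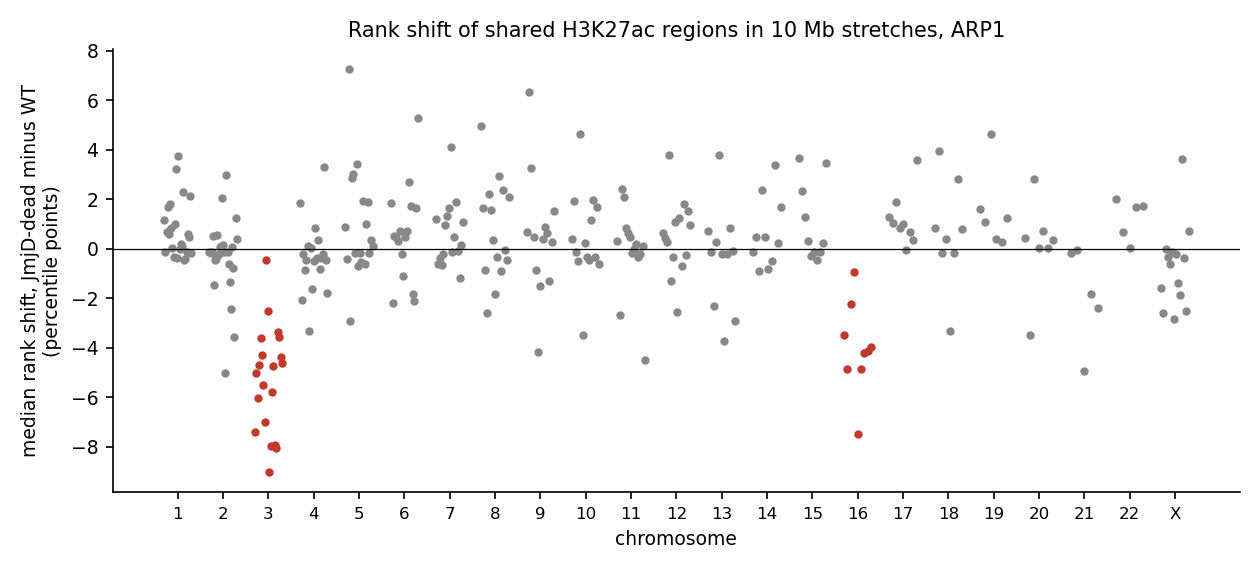
Median rank shift of shared H3K27ac regions, JmjD-dead minus WT (percentile points, vertical axis), in stretches of 10 Mb with at least 30 pairs, ordered along each chromosome (horizontal axis). Red points are chromosomes 3 and 16, where all 20 and all 9 stretches lay below 0, and grey points are the other chromosomes.

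Gained and lost regions carried fewer of the other marks than shared regions, also at matched ranks. Widths were not matched, and a wider region meets an overlap of 1 bp more readily. Over all ranks the median width was 217 bp for gained and 689 bp for shared JmjD-dead regions. It was 239 bp for lost and 762 bp for shared WT regions. The part of width in these shares was not tested. H3K4me1 of WT cells, the mark of enhancers, overlapped 33% of gained regions and 86.0% of shared JmjD-dead regions, or 67.4% with shared regions weighted to the ranks of the gained ones. It overlapped 42.2% of lost regions and 85.5% of shared WT regions, 60.4% at matched ranks. KDM6A sites were regions of the KDM6A antibody in WT without one in KO, and overlapped 14.8% of gained regions and 22.6% of shared ones, 15.6% at matched ranks. They overlapped 11.5% of lost regions and 23.2% of shared ones, 15.7% at matched ranks. Of WT regions on a KDM6A site 16.0% were lost (interval 15.4 to 16.6), against 19.1% of those off one at matched ranks. Of JmjD-dead regions on a site 21.2% were gained, against 22.4% off one. HA regions of the tagged line without one in the WT line overlapped 6.43% of gained regions, against 15.4% of shared ones at matched ranks, and 9.93% of lost regions, against 13.0%. Both antibodies' lists came from single-end reads and an earlier MACS release than the H3K27ac lists. Their background was high. The HA antibody listed 78725 regions in the WT line and 54338 in the tagged one. The KDM6A antibody listed 44936 regions in KO and 90964 in WT. The subtracted lists may therefore still hold regions without KDM6A. Input regions overlapped 0.747% of gained and 0.673% of lost regions.

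H3K27me3, the mark KDM6A removes, was less frequent at regions that differed, again with widths not matched. JmjD-dead H3K27me3 regions overlapped 18.5% of gained regions, against 23.7% of shared JmjD-dead regions at matched ranks, and 14.6% of lost regions, against 26.5% of shared WT regions. WT H3K27me3 regions overlapped 4.85% of gained regions, against 11% of shared ones at matched ranks, and 5.40% of lost regions, against 10.9% of shared ones. The JmjD-dead H3K27me3 list was the longer, with 37236 regions against 17355 in WT, so its shares cannot be set against those of WT. At promoters JmjD-dead H3K27me3 was listed at 18.5% of gained genes (interval 14.1 to 23.6), 16.0% of lost genes (12 to 20.8) and 19.0% of kept genes. WT H3K27me3 was listed at 4.71% of gained genes (2.53 to 7.92), 11.1% of lost genes (7.75 to 15.4) and 9.69% of kept genes. At the 7854 genes unmarked in both H3K27ac lists it was 0.78%, and 3.43% for JmjD-dead H3K27me3. Listed H3K27me3 was thus more frequent at acetylated promoters than at unmarked ones, so these shares may not reflect repressed promoters. The cause was not tested. The intervals of lost genes thus held the share of kept genes in both lists, and that of gained genes lay below it in the WT list. The overlap of both marks in peak lists does not show that they lie on the same nucleosomes.

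**Figure D5:**
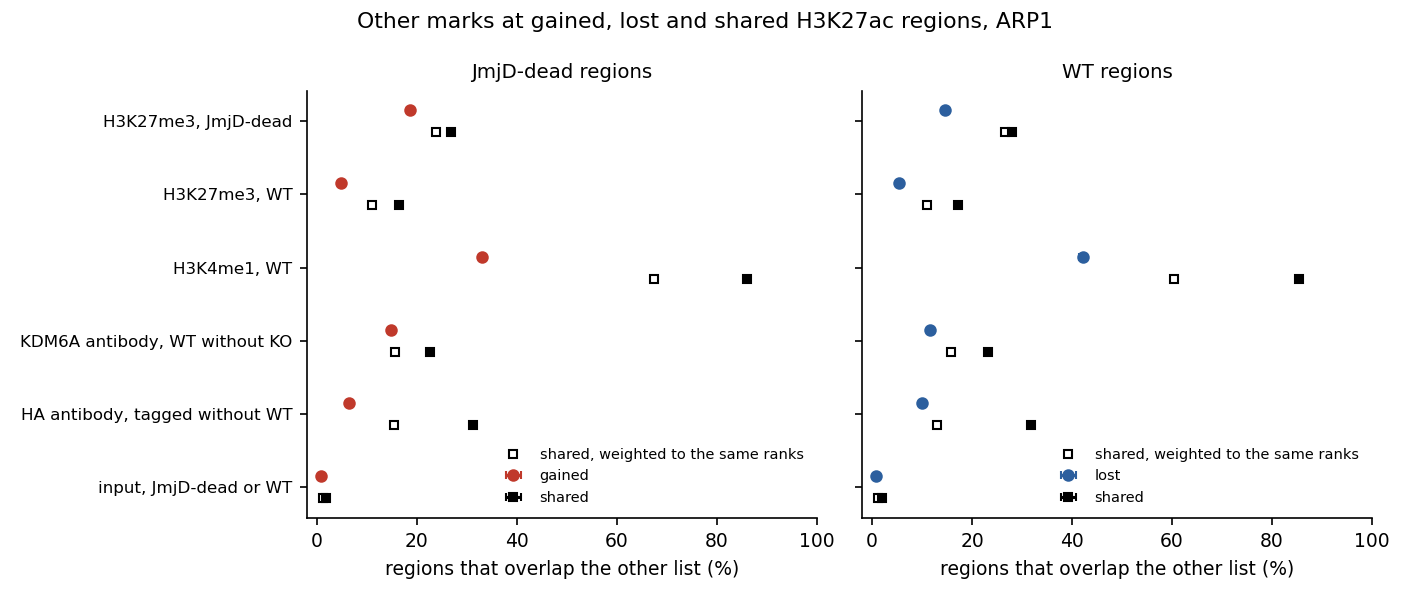
Share of H3K27ac regions that overlap regions of another list (%, horizontal axis), for JmjD-dead regions (left, gained in red) and WT regions (right, lost in blue). Filled squares are shared regions, open squares shared regions weighted to the ranks of the gained or lost ones, and bars (mostly within the symbols) 95% binomial intervals; H3K4me1 overlapped 33% of gained and 42.2% of lost regions, below both squares.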

How the data were processed

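H3K27ac peak lists of ARP1 JmjD-dead and WT cells were used, 1 per group, with other ARP1 lists as annotation. The submitters' processing notes name the build GRCh38 and the tools Bowtie2, MACS2 2.1.2, Trimmomatic, MultiQC and FastQC. Per the file headers, the H3K27ac lists came from MACS 2.2.7.1, per library, on paired fragments, with duplicates removed, no control, no local background and a q-value of 0.05. Each deposited row holds the authors' pileup signal, fold enrichment and −log10 q-value, used to rank, filter and describe regions within a list. Rows of equal coordinates were merged, and 92 JmjD-dead and 83 WT rows on other contigs left out. Genes were 19970 protein-coding genes of RefSeq GRCh38.p14, read within 1 kb of 22131 starts, or, for 4159 genes with no start in the table, within 2.5 kb of either end. Covered length took the gene body and 10 kb either side. Named genes were the 10 highest ranked gained and lost promoters with nothing within 10 kb in the other list, the 10 with the largest ratio of covered length each way (mean at least 3000 bp), 5 promoter rank shifts and 5 domains each way, key regulators, and list members that changed. The members, 22 lists and rules were chosen with earlier results of these data known. Genes named from lists for comparison follow the same rule, and CD86, CD47 and HERPUD1 were picked after their values were seen. The functions were tested on simulated data. Tools were scipy 1.17.1, matplotlib 3.10.9, pandas 2.3.3, Python 3.11.15 and numpy 2.4.6.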

Additional observations from a re-analysis of the deposited data

How the results depend on the processing

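No paired analysis was possible because each group had 1 library and the labels give no replicate numbers. In all 20 other settings were tried, each on the counts it bears on, and 117 of 154 recomputed counts stayed within 1.5 times the reported one. Distal regions were gained or lost more often than proximal ones in 26 of 26 recomputed comparisons. With both lists at −log10 q of at least 5, which left 53380 JmjD-dead and 44526 WT regions, 13634 were gained and 7026 lost. Of the lost ones 401 were proximal, and 13 domains were higher and 5 lower. These counts come from lists of unequal length. Regions at that limit with none of any q in the other list numbered 8820 gained and 4700 lost, 446 and 251 of them proximal, with 170 gained and 128 lost genes. With regions closer than 500 bp joined there were 12992 gained and 12166 lost regions, 464 and 455 of them proximal, and 2158 pairs ranked higher and 2212 lower; SLC35A2 shifted by -2.05. Pairs that overlap by 0.5 of each region gave 1211 higher and 1275 lower. Proximal gained and lost regions were 1697 and 1457 at 2.5 kb and 3730 and 3187 at 10 kb around the start. Genes past 2-fold higher and lower were 68 and 87 at a mean of 3000 bp, 547 and 550 with no filter, and 77 and 105 with 1000 bp added. At a shift of 10 points 8224 pairs ranked higher and 8488 lower, and 1083 and 1166 promoters. Stitching at 5 kb gave 9 higher and 7 lower domains. Chosen after seeing the data, leaving out chromosomes 3 and 16 gave 98 higher and 153 lower promoters and 7 higher and 9 lower domains, leaving out regions under 200 bp gave 14357 gained regions, and leaving out 29 dense bins of 1 Mb moved no count past 1.5 times. The cause was not tested where the setting does not itself remove items. Fold enrichment gave the same ranks. Named genes kept covered lengths past 2-fold in 236 of 236 values and promoter states in 236 of 240. These shares are not a check, as the genes were picked for wide differences and some settings could not change them. The limits on mean covered length left named ratios as they were. Wider windows around the start could not alter promoters picked for no region within 10 kb in the other list. The other 4 were GLUD2 without chromosome X or regions under 200 bp, and PRKCB and ITPRIPL2 without chromosome 16. The limit in 1 list against any q in the other was not run for covered length, ranks or domains, nor an overlap of 0.5 for genes, covered length, promoter ranks or domains.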
